A study of Mus musculus with 10 samples.

Results

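Transcript levels of the proteasome were measured in the forebrains of mouse embryos that carried a constitutively active form of FoxO3 and in control embryos. The members were the genes whose symbol begins with Psma, Psmb, Psmc, Psmd, Psme, Psmf or Psmg followed by a number, on array rows that name 1 gene. This gave 48 of the 19938 genes tested, on 16 chromosomes. Each gene was read from 1 probe set, a group of short array probes for the same transcript, namely the brightest by mean over the 10 arrays. A row that names both Psme2b and Psme2 was left out. RNA came from part of the forebrain of 10 embryos at stage E12.5, on a mixed CD1/NMRI background, with 1 Affymetrix Mouse Gene ST array per embryo. The 5 embryos titled dtg came from transgenic mice in which the forebrain-specific CaMKIIa promoter drives the active FoxO3 allele, and the 5 titled stg came from control mice. Neither dtg nor stg is expanded in the labels, which also leave unsaid if a transgene is present in the controls. Only cells in which that promoter is active would make the transgene product, whereas the arrays read the whole dissected tissue. All embryos came from 2 dams, which the labels do not assign to embryos, so the part of the dam in any difference was not tested. The p-values below set the difference between the groups against the spread between these embryos. They treat the embryos as independent, which the shared dams may not allow.

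The proteasome is the protease that degrades proteins marked with ubiquitin. Its core is a barrel of alpha and beta rings, with the proteolytic sites on the inner beta rings, and a regulatory particle with a base of ATPases and a lid unfolds substrates and feeds them into the barrel. Dividing progenitors and young neurons of the embryonic brain rely on it, among other things to remove cyclins during mitosis and to turn over fate regulators. FOXO factors are known in muscle to drive the ubiquitin ligases Fbxo32 and Trim63, and FOXO4 has been linked to the lid subunit Psmd11 in human pluripotent stem cells. The transcription factor Nfe2l1 raises proteasome subunit genes together when proteasome activity is short, acting through antioxidant response elements in their promoters.

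Promoters are shown for the pair of members with the smallest p-values, Psma7 and Psmd14, for the main chymotrypsin-like catalytic subunit Psmb5, and for Psmd11. Each is the 250 bases before the RefSeq transcript start in GRCm38.p6, written 5′ to 3′ on the strand of the gene. Psma7 lies on the minus strand at chr2:180042465-180042714, Psmd14 on the plus strand at chr2:61711444-61711693, Psmb5 on the minus strand at chr14:54617996-54618245 and Psmd11 on the plus strand at chr11:80428365-80428614. Capitals mark CCAAT, the NF-Y box, which reads ATTGG from the other strand, and TGACNNNGC, the core of the antioxidant response element.
Psma7: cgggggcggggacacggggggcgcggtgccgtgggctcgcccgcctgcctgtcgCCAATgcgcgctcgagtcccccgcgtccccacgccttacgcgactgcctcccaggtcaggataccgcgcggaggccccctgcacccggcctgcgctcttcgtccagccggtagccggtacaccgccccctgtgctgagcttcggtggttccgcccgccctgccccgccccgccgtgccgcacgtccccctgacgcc
Psmd14: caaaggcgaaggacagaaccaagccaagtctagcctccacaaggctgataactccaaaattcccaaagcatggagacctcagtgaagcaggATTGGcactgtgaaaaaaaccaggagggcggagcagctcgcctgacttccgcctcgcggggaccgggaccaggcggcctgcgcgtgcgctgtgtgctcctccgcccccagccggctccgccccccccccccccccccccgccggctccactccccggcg
Psmb5: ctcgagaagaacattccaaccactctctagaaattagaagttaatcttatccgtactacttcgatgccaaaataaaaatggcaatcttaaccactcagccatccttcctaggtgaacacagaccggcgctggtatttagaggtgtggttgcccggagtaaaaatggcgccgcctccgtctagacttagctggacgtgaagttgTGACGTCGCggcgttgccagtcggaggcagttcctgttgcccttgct
Psmd11: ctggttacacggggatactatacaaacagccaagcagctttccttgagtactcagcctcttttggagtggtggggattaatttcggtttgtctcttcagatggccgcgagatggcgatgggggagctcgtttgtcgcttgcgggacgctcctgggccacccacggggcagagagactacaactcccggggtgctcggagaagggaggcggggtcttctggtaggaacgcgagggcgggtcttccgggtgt
Psma7 and Psmd14 each have 1 NF-Y box, Psmb5 has 1 antioxidant response element core whose first base lies 47 bases before the start, and Psmd11 has neither. RefSeq promoters were matched for 40 of the 48 members. A gene was counted for a motif where any of its listed promoters held it on either strand, and was set against the 15614 tested genes with a promoter of this length. TGACNNNGC was found for 5 of the 40 members, Psmb5, Psmb6, Psmc6, Psmd9 and Psmd12, and for 12.49% of the tested genes. CCAAT was found for 14 members (35%) and for 38.8% of the tested genes. TGTTTAC, the FOXO core, was found for 0 of the 40 members and for 3.18% of the tested genes. Over single promoters of any gene the shares were 10.2%, 33.9% and 3.17%. A match is only a match of letters. The 5 members with TGACNNNGC had a median difference of -0.010 and the 35 without it of -0.048.

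Array medians ran from 5.36 to 5.39 on the log2 scale, and arrays correlated with each other at 0.98 to 0.996. Control embryo stg 5 had a mean correlation of 0.985 with the other arrays, against 0.992 to 0.993 for the rest, and a mesenchyme marker mean 1.40 above the stg mean. Foxo3, the gene whose active form the transgene carries, read 6.95, 7.13, 7.10, 6.76 and 6.96 in dtg 1 to 5. It read 6.498, 6.61, 6.59, 6.65 and 6.87 in stg 1 to 5. The difference was 0.34 ± 0.085 (SE, n = 5 per group), with 4 dtg embryos above every control and an adjusted p of 0.218 in limma, so Foxo3 did not pass the test. Whether its probe set reads the transgene, the endogenous gene or both was not tested. The forebrain markers Emx1, Emx2, Dlx2 and Tbr1 had dtg means of 6.97, 7.25, 6.88 and 8.71, and stg means of 7.34, 7.45, 7.14 and 8.78.

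Proteasome transcripts differed little between dtg and stg forebrains. In limma, a linear model per gene with variances shared across genes, 0 of the 48 members passed a Benjamini-Hochberg adjusted p of 0.05 over all genes, where 0.105% of all genes passed (13 higher and 8 lower in dtg). At an unadjusted p below 0.05 the members were Psma7 and Psmd14, 2 of 48 (4.17%), against 7.58% of all genes. This small count depended on the embryos and the fit. It was 8 members (16.7%, against 9.53% of all genes) without dtg 4. Without dtg 5 or stg 3 it was 4 (8.33%, against 6.6% and 6.53% of all genes). Without dtg 1, dtg 2, dtg 3, stg 4 or stg 5 it was 1 (2.08%, against 5.72% to 8.3%). It was 5 (10.4% against 8%) with the replicate block and 4 (8.33% against 7.68%) with a trend in the prior variance. The smallest adjusted p of a member was 0.554. Differences ran from -0.20 for Psmg2 to 0.11 for Psma8 on the log2 scale, and 36 of the 48 were under 0.1 in size. The 95% limma intervals of all members together spanned -0.41 to 0.24, or folds of 0.754 to 1.18, and 46 of the 48 included 0. The members' median SD within groups was 0.092, smaller than the 0.12 of all genes.

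Small differences lay mostly on 1 side. The dtg mean was below the stg mean for 38 members (79.2%), against 51.9% of all genes, and the median difference was -0.049, against -0.0038 over all genes. This is a description of the members and not a test. Subunits of 1 complex vary together between embryos, so that their signs are not separate observations. Without dtg 3 the median was -0.031, with 32 members lower. In 7 members (14.6%, against 6.51% of all genes) 4 dtg embryos lay outside the stg range on 1 side, and in each of these it was the low side. They were Psma5, Psma6, Psma7, Psmc6, Psmd3, Psmd14 and Psme1. Dtg 4 was the remaining embryo for Psma5, Psma7, Psmc6 and Psmd14. The dtg and stg values of all 48 members overlapped, whereas those of 1.6% of all genes did not. In bulk tissue, fewer cells of a type and less RNA per cell cannot be told apart.

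**Figure D1:**
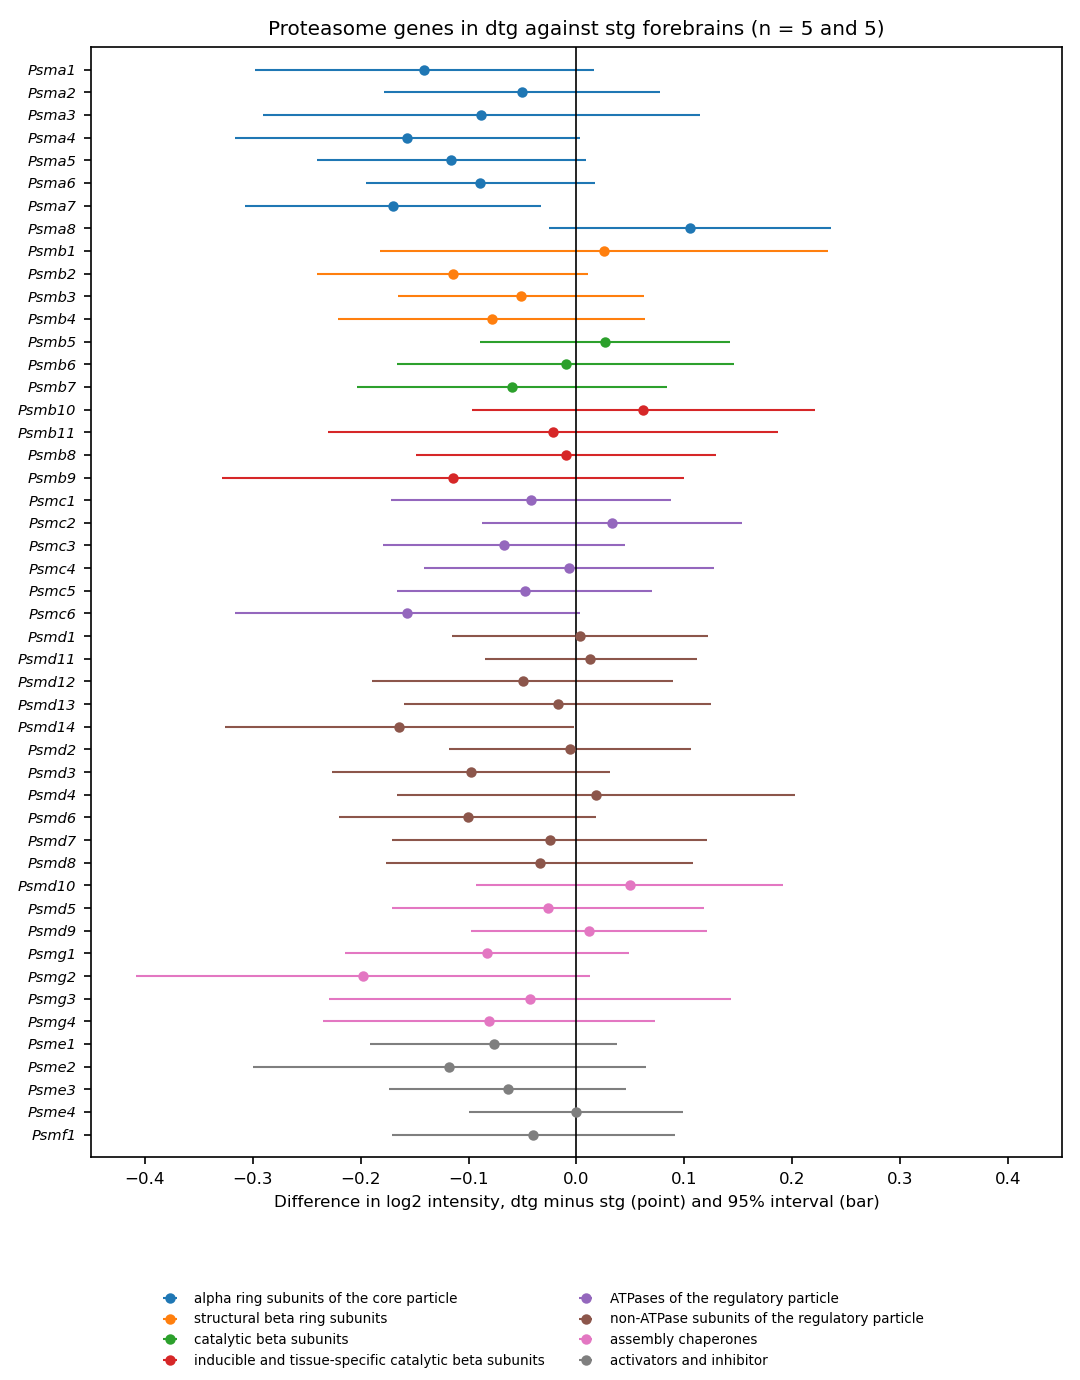
Difference in log2 intensity between 5 dtg and 5 stg forebrains for each of the 48 proteasome genes, coloured by role, with the 95% limma interval as a bar. Most points lie left of 0, and 46 of the 48 bars cross it.

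The alpha ring, which forms the outer gate of the core, had the lowest median difference of the role groups, at -0.10, with 7 of 8 members lower and 0 past the adjusted threshold. Psma7, an alpha ring subunit, read 8.51, 8.45, 8.39, 8.66 and 8.43 in dtg 1 to 5 and 8.60, 8.64, 8.57, 8.74 and 8.73 in stg 1 to 5. Only dtg 4 reached into the control range. The difference was -0.17 ± 0.063 (SE, n = 5 per group; limma adjusted p = 0.554; exact two-sided permutation p = 0.0317, where the smallest possible is 0.00794). Psma4, another gate subunit, read 8.82, 8.92, 8.65, 8.98 and 8.98 in dtg 1 to 5 and 8.998, 9.02, 8.92, 9.16 and 9.04 in stg 1 to 5. In total 3 of its dtg embryos lay below every control, and the difference was -0.16 ± 0.073 (limma adjusted p = 0.67), or -0.10 without dtg 3. Among the others, Psma1 differed by -0.14, Psma5 by -0.12, Psma6 by -0.089, Psma3 by -0.088 and Psma2 by -0.050. Psma6 had tight groups, from 8.69 to 8.81 in dtg and 8.79 to 8.92 in stg. Its exact permutation p of 0.0159 was the smallest of the members, with a limma adjusted p of 0.737. Psma4, Psmb2 and Psmd6 each had an exact permutation p of 0.0476. Exact permutation p-values were not counted over all genes. For Psma5 and Psma3, the other probe sets of the gene gave differences of the same sign, -0.18 for Psma5 and -0.073 and -0.069 for Psma3.

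Psma8, the testis-specific counterpart of Psma7, was the exception in the ring. It read 4.07, 4.09, 3.97, 3.95 and 4.01 in dtg 1 to 5 and 3.77, 4.004, 3.91, 3.87 and 4.01 in stg 1 to 5. The groups overlapped, and the difference was 0.11 ± 0.060 (SE, n = 5 per group; limma adjusted p = 0.753), or 0.069 without stg 1. Its mean lay at the 21.8th percentile of all genes, so that it was 1 of 3 members below the 40th percentile, with Psmb8 and Psmb11.

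The structural subunits of the beta ring, which carry no active site, had a median difference of -0.065, with 3 of 4 lower. Psmb2 differed by -0.11 ± 0.058 (SE, n = 5 per group), from 8.76 to 8.97 in dtg and 8.93 to 9.05 in stg. Psmb4 differed by -0.078, Psmb3 by -0.051 and Psmb1 by 0.025. All 4 had their lowest value in dtg 3.

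The catalytic subunits that do the cutting in the standard proteasome lay closest to no difference, with a median of -0.010. Psmb5, which cuts after large hydrophobic residues, read 8.21, 8.25, 8.18, 8.17 and 8.26 in dtg 1 to 5 and 8.30, 8.21, 8.10, 8.12 and 8.21 in stg 1 to 5. All dtg values lay inside the control range, and the difference was 0.026 ± 0.053 (95% interval -0.090 to 0.14). It ran from 0.0039 without stg 3 to 0.054 without stg 1. Psmb6, which cuts after acidic residues, read 9.29, 9.37, 9.30, 9.51 and 9.50 in dtg and 9.46, 9.26, 9.29, 9.52 and 9.48 in stg. Its difference was -0.010 ± 0.072, with an interval of -0.17 to 0.15, and turned to 0.017 under quantile normalization. Psmb7, which cuts after basic residues, read 10.07, 10.01, 9.89, 10.24 and 10.08 in dtg and 10.12, 10.10, 10.04, 10.20 and 10.12 in stg. Its difference was -0.060 ± 0.066, and dtg embryos held both its lowest and its highest value. It was -0.018 without dtg 3, -0.11 without dtg 4, -0.039 without stg 4 and -0.013 under quantile normalization.

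The inducible subunits replace these under interferon to form the immunoproteasome, which shapes peptides for antigen presentation. Psmb8, the counterpart of Psmb5, read 4.02, 4.27, 4.29, 4.07 and 4.12 in dtg 1 to 5 and 4.21, 4.15, 4.23, 4.13 and 4.10 in stg 1 to 5. The difference was -0.0099 ± 0.064, within an interval of -0.15 to 0.13. Psmb9, the counterpart of Psmb6, read 6.07, 6.25, 6.44, 6.17 and 5.92 in dtg and 6.20, 6.24, 6.51, 6.14 and 6.34 in stg, a difference of -0.11 ± 0.098 (limma adjusted p = 0.852). That value was -0.051 without dtg 5, -0.059 without stg 3 and -0.18 without dtg 3. Psmb10, the counterpart of Psmb7, read 5.82, 5.87, 5.78, 5.87 and 6.10 in dtg and 5.96, 5.67, 5.81, 5.84 and 5.86 in stg, a difference of 0.062 ± 0.073. Only 0.0092 was left without dtg 5 and 0.022 without stg 2, and the value was 0.095 without stg 1. Psmb11, the thymus-specific subunit, differed by -0.022. Of these 4, 0 had its lowest value in dtg 3, which held the lowest value of 24 of the 48 members. Psmb9 and Psmb8 flank the peptide transporter gene Tap1 on chromosome 17, and Tap1 differed by -0.055.

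**Figure D2:**
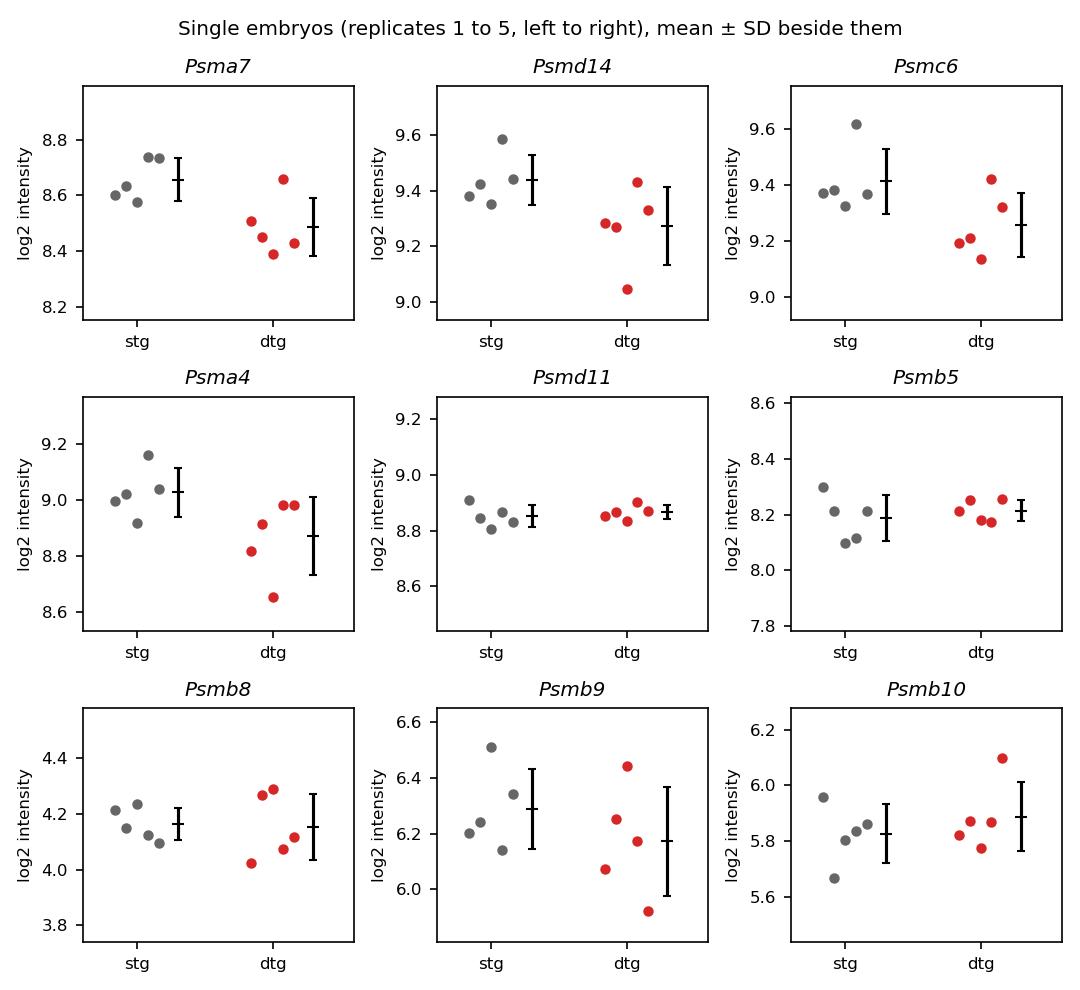
Log2 intensity of 9 proteasome genes in single embryos, with stg in grey, dtg in red and the mean ± SD of each group beside them. Psma7, Psmd14 and Psmc6 each have 4 dtg embryos below all controls, whereas all dtg values of Psmb5 and Psmd11 lie inside the control range.

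In the base of the regulatory particle, 5 of the 6 ATPases were lower in dtg, with a median of -0.045. Psmc6 read 9.19, 9.21, 9.14, 9.42 and 9.32 in dtg 1 to 5 and 9.37, 9.38, 9.33, 9.62 and 9.37 in stg 1 to 5. Dtg 4 alone reached into the control range, and the difference was -0.16 ± 0.073 (SE, n = 5 per group; limma adjusted p = 0.67; exact permutation p = 0.0714). Without stg 4 the difference of Psmc6 was -0.105. Psmc2 went the other way, at 8.76, 8.68, 8.68, 8.86 and 8.76 in dtg and 8.62, 8.75, 8.69, 8.78 and 8.74 in stg. That difference was 0.033 ± 0.055, within the spread of the embryos, and ran from 0.0045 without dtg 4 to 0.050 without dtg 2. The remaining ATPases differed by -0.067 (Psmc3), -0.048 (Psmc5), -0.042 (Psmc1) and -0.0069 (Psmc4).

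Among the 11 non-ATPase subunits 8 were lower in dtg, with a median of -0.025. Psmd14, the lid metalloprotease that strips ubiquitin chains from substrates, read 9.28, 9.27, 9.05, 9.43 and 9.33 in dtg 1 to 5 and 9.38, 9.43, 9.35, 9.59 and 9.44 in stg 1 to 5. Dtg 1, 2, 3 and 5 lay below every control. The difference was -0.16 ± 0.074 (SE, n = 5 per group; limma adjusted p = 0.649; exact permutation p = 0.0397), and -0.11 without dtg 3. Psmd6 differed by -0.10 and Psmd3, a lid scaffold subunit, by -0.098. Psmd12, Psmd8, Psmd7, Psmd13 and Psmd2 differed by -0.050, -0.034, -0.025, -0.017 and -0.0057. The ubiquitin receptor Psmd4 and the large scaffold Psmd1 differed by 0.018 and 0.0037.

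Psmd11 read 8.85, 8.86, 8.83, 8.90 and 8.87 in dtg 1 to 5 and 8.91, 8.85, 8.81, 8.87 and 8.83 in stg 1 to 5. The dtg values all lay inside the control range, and the SDs were 0.025 in dtg and 0.039 in stg. The difference was 0.013 ± 0.045 (SE, n = 5 per group), with a 95% interval of -0.085 to 0.11 (limma adjusted p = 0.974). It ran from 0.0017 without stg 3 to 0.028 without stg 1, and was 0.0001 after median centring. No difference in this gene was detectable at this precision, and the interval leaves room for a small one in either direction.

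Assembly chaperones, which build the rings and the base and are not part of the finished particle, had a median of -0.043, with 5 of 7 lower. Psmg2, a chaperone of the alpha ring, had the largest difference of all members. It read 7.15, 7.22, 6.85, 7.29 and 7.31 in dtg 1 to 5 and 7.27, 7.22, 7.31, 7.44 and 7.58 in stg 1 to 5. Dtg 3 was lowest, stg 5 was highest, and the difference was -0.20 ± 0.096 (SE, n = 5 per group; limma adjusted p = 0.684), or -0.12 without dtg 3. Psmg1, its partner, differed by -0.083, and Psmg4 and Psmg3, which form another pair, by -0.081 and -0.043. Of the chaperones of the base, Psmd5 differed by -0.026, Psmd9 by 0.012 and Psmd10 by 0.049. Psmd10, also known as gankyrin, read 7.70, 7.62, 7.63, 7.87 and 7.76 in dtg and 7.72, 7.59, 7.65, 7.79 and 7.58 in stg, and its difference ran from 0.010 without dtg 4 to 0.080 without stg 4.

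All 5 measured activators and inhibitors of the core were lower in dtg, by a median of -0.064. Psme1 and Psme2 encode the interferon-inducible activator and lie with only Emc9 between them on chromosome 14. They differed by -0.077 ± 0.053 and -0.12 ± 0.083. Psme1 read 8.73, 8.52, 8.59, 8.58 and 8.59 in dtg 1 to 5 and 8.69, 8.72, 8.68, 8.71 and 8.61 in stg 1 to 5, so that dtg 1 lay above every control and the other 4 below. The nuclear activator Psme3 differed by -0.064, the inhibitor Psmf1 by -0.040 and the large activator Psme4 by -0.0005.

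**Figure D3:**
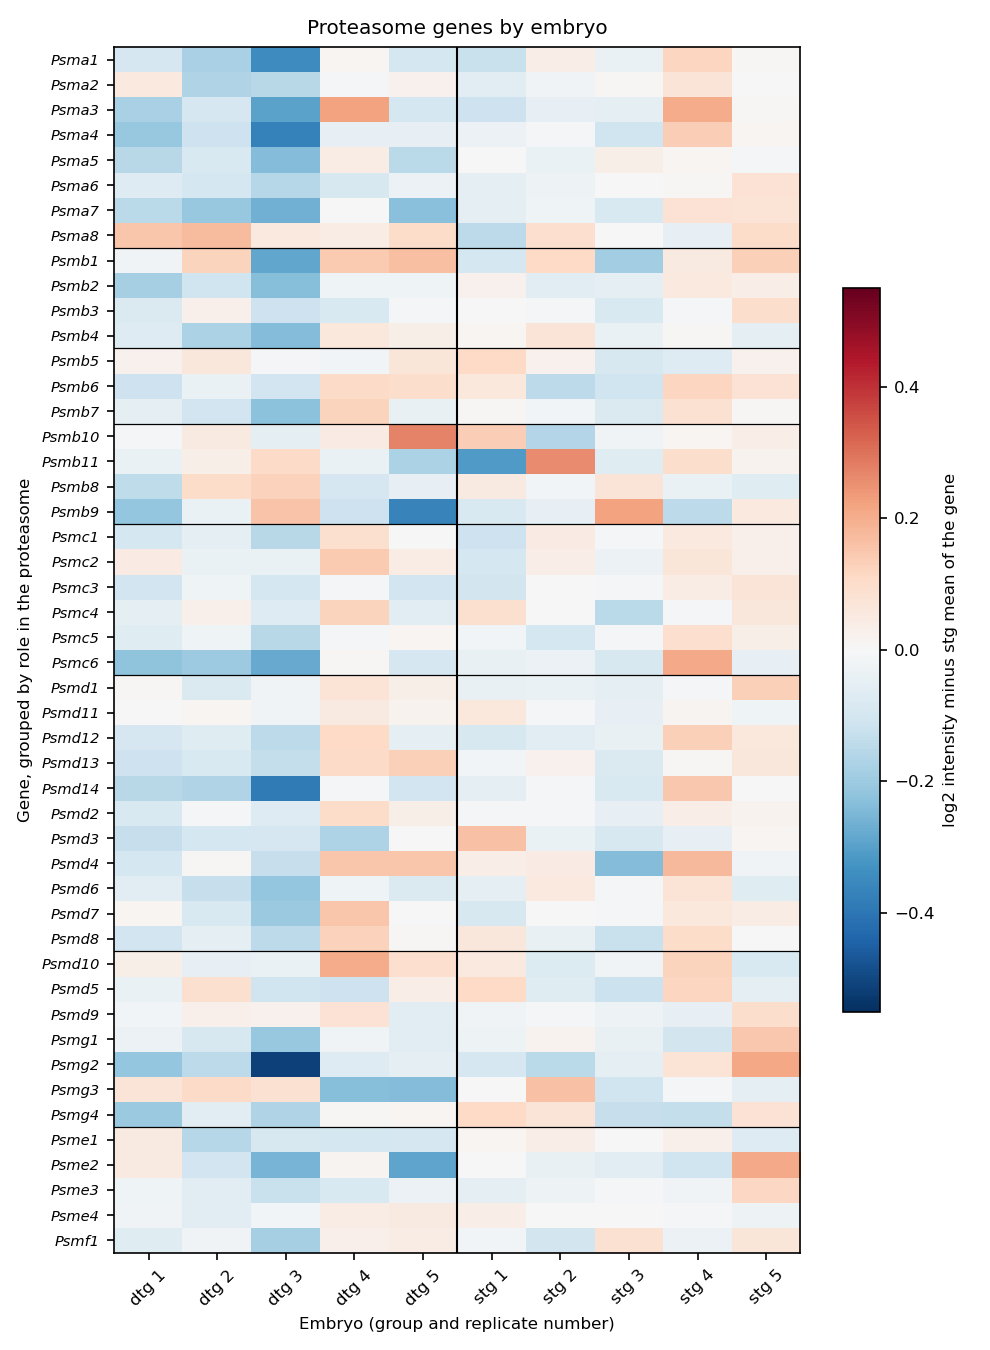
Log2 intensity of each proteasome gene in each embryo minus the stg mean of that gene, from blue (lower) to red (higher), with genes grouped by role and dtg embryos on the left. The column of dtg 3 is the bluest, and dtg 4, stg 4 and stg 5 are mostly red.

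The members varied as much between embryos of a group as between the groups. Set against the stg mean of each gene, the median over the 48 members was -0.068, -0.058, -0.14, 0.012 and -0.016 in dtg 1 to 5. In stg 1 to 5 it was -0.017, -0.010, -0.045, 0.041 and 0.027. The groups overlapped, dtg 4 lay among the high controls, and the SD of these medians within groups was 0.047, near the size of the members' median difference. Dtg 3 held the lowest of the 10 values for 24 members (50%), against 11.4% of all genes. Stg 4 held the highest for 13 of the 48 members, where 6.33% of all genes had their highest value. For 15 members the lowest value was in dtg 3 and the highest in dtg 4 or stg 4, a pattern not counted over all genes. Of the 32 subunits of core and regulatory particle other than the inducible and tissue-specific beta subunits, 20 were lowest in dtg 3. The 32 include the testis-specific Psma8.

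Cell-type markers differed between the same embryos. The mean of the 10 measured G2/M genes, which mark dividing cells, was -0.47, -0.010, -0.38, 0.016 and -0.14 against the stg mean in dtg 1 to 5, and -0.023, -0.029, 0.019, -0.085 and 0.12 in stg 1 to 5. All 10 genes were lower in dtg without passing the test. Of these, 4 had an unadjusted limma p below 0.05 (40%, against 7.58% of all genes). The list mean ran from 8.09 to 8.58 in dtg and 8.48 to 8.68 in stg. Its difference was -0.20, and -0.13 without dtg 1. The 12 pan-neuronal markers were all higher in dtg without passing, with list means from 8.56 to 9.09 in dtg and 7.68 to 8.83 in stg. Control stg 5 lay at -0.84, and the difference of 0.32 became 0.11 without it. The 8 radial glia markers were mixed, with 5 higher and 3 lower in dtg, a list difference of 0.022 and none passing. The endothelial and mesenchyme lists differed by -0.030 and -0.11, and both changed sign without stg 5. The list for microglia and other leukocytes differed by 0.086, with all 6 genes higher and none passing. All 5 measured erythroid genes (of 7 listed), which mark blood, were lower in dtg without passing, with list means from 7.71 to 8.85 in dtg and 7.69 to 9.42 in stg. Against the stg mean the erythroid list stood at -0.79, 0.0031, -0.81, 0.33 and 0.079 in dtg 1 to 5 and at -0.071, -0.82, 0.085, -0.090 and 0.90 in stg 1 to 5. It was thus low in dtg 3 and high in dtg 4 and stg 5, but also low in dtg 1 and stg 2. Its difference was -0.24, which became -0.013 without stg 5, -0.096 without dtg 3, -0.10 without dtg 1, -0.38 without dtg 4 and -0.44 without stg 2. Dtg 3, with the lowest proteasome median (-0.14), stood at -0.38 for G2/M and 0.58 for the neuronal list. Dtg 1, with the next lowest median (-0.068), stood at -0.47 and 0.58 for these lists. The mesenchyme list stood at -0.29 in dtg 3 and -0.011 in dtg 1. The 6 thalamic and other diencephalic markers, which bear on the cut of the dissection, were all higher in dtg without passing. All 6 had an unadjusted limma p below 0.05 (100%, against 7.58% of all genes). Their mean ran from 7.21 to 8.22 in dtg and 5.78 to 7.61 in stg. Against the stg mean it stood at 1.41, 1.51, 1.64, 0.63 and 1.06 in dtg 1 to 5. In stg 1 to 5 it stood at -0.36, -0.45, 0.59, 1.03 and -0.81. The difference of 1.25 was the largest of the marker lists, and ran from 1.05 without stg 5 to 1.51 without stg 4. No marker can be said to be at 0 on arrays, and the part of these markers in the proteasome values was not tested.

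**Figure D4:**
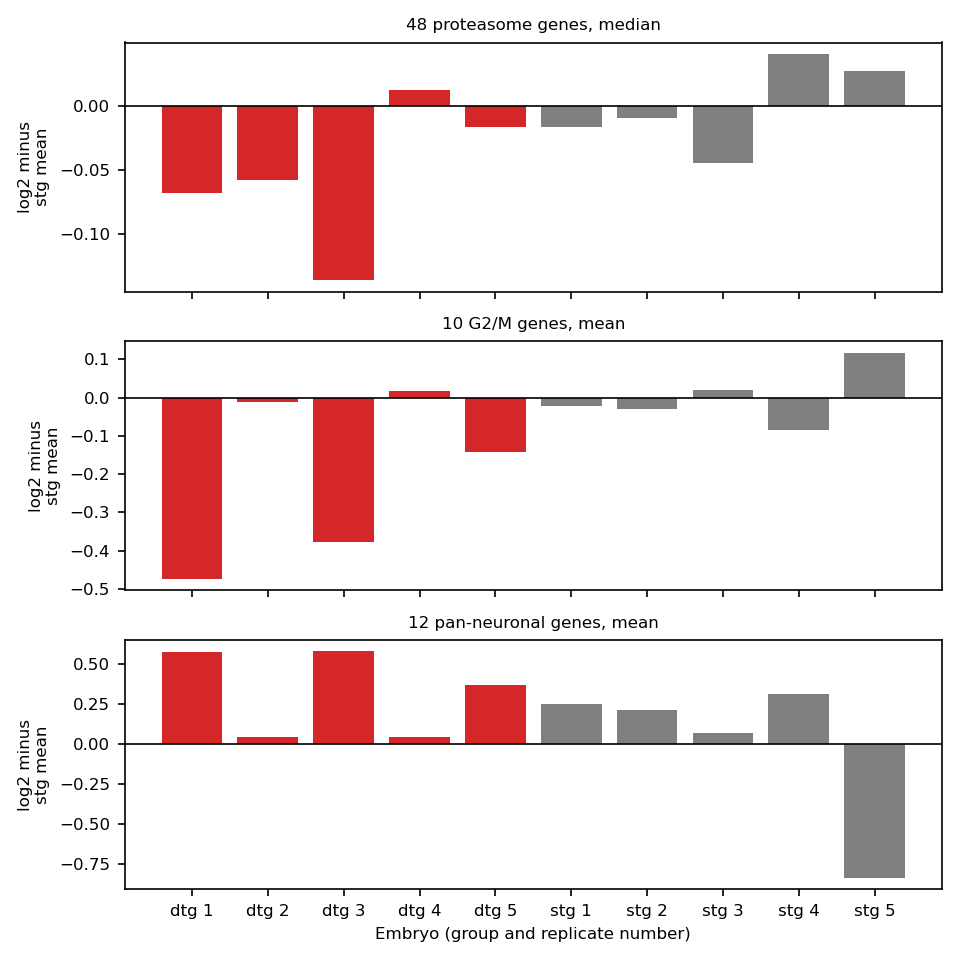
Per embryo, the median over the 48 proteasome genes, the mean of 10 G2/M genes and the mean of 12 pan-neuronal genes, each as log2 intensity minus the stg mean, with dtg in red and stg in grey. Dtg 3 is lowest for the proteasome genes and high for the neuronal genes, and stg 5 is far below the others for the neuronal genes.

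Genes that work with the proteasome were read from lists of 51 genes, of which 39 were measured. Again 0 passed the adjusted threshold in limma (0.105% of all genes did), 4 had an unadjusted p below 0.05 (10.3%, against 7.58% of all genes), and 15 were higher and 24 lower in dtg, with a median of -0.023. Other subunits, assembly factors and partners of the proteasome (13 of 16 measured) had 10 lower and a median of -0.049. Among them the deubiquitinase Uchl5 differed by -0.14, the thioredoxin-like partner Txnl1 by -0.13 and the maturation factor Pomp by -0.080. The ligase Ube3c, Zfand5 and the shuttle protein Ubqln2 differed by 0.051, 0.026 and 0.0053. Of the p97 complex, which extracts ubiquitinated proteins for degradation, 5 of 6 genes were lower. Its ATPase Vcp differed by 0.015 and the cofactors Ubxn1, Nsfl1c and Ufd1 by -0.11, -0.090 and -0.047. Uba6, the 1 of 6 ubiquitin and activating-enzyme genes that could be measured, differed by 0.034.

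Of the transcription factors of proteasome genes and their processing, 7 of 8 were measured, 3 higher and 4 lower. Nfe2l1 read 8.30, 8.10, 8.33, 8.26 and 8.29 in dtg 1 to 5 and 8.12, 7.95, 8.12, 8.10 and 8.03 in stg 1 to 5. All dtg embryos but dtg 2 lay above every control, and the difference was 0.19 ± 0.061 (SE, n = 5 per group; limma adjusted p = 0.446; exact permutation p = 0.0317). Nfe2l2 differed by 0.026 and Nfyb by 0.0055, whereas Nfya, Stat3 and Ngly1, the deglycosylase that processes Nfe2l1 protein, differed by -0.077, -0.050 and -0.034.

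The 5 FOXO-linked ubiquitin ligases had 2 higher and 3 lower in dtg. Fbxo32, the muscle atrophy ligase, read 5.08, 5.04, 5.16, 5.03 and 5.06 in dtg 1 to 5 and 4.78, 4.95, 4.90, 4.99 and 4.81 in stg 1 to 5. Every dtg embryo lay above every control, and 1.6% of all genes had groups that did not overlap. The difference was 0.19 ± 0.056 (SE, n = 5 per group; limma adjusted p = 0.397; exact permutation p = 0.00794, the smallest possible). Its mean level lay at the 39.1th percentile of all genes, below the 40th percentile of the filter on dim genes. Trim63 differed by 0.077, Mdm2 by -0.0088, Stub1 by -0.091 and Skp2, which targets cell-cycle inhibitors, by -0.25 (limma adjusted p = 0.627). Of the interferon response and antigen presentation genes, 7 of 10 were measured, with 5 higher. B2m, Tapbp and Irf1 differed by 0.18, 0.12 and 0.11, and Tap1 and Nlrc5 by -0.055 and -0.051, none of them past the adjusted threshold.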

How the data were processed

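RNA from part of 10 embryonic forebrains was biotin-labelled by a whole-transcript sense target method, per the labels' protocols. The submitters' processing notes name Affymetrix Expression Console as the tool behind the authors' deposited log2 intensities. Its version, algorithm and settings are not given in the sources used here. No further normalization was applied. Of 35556 probe sets, 21789 name 1 gene in the platform's table, 1621 name several and 12146 name none. Groups came from the titles.

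limma 3.58.1 in R 4.3.3 compared 5 dtg with 5 stg arrays over 19938 genes (group only, two-sided, Benjamini-Hochberg, threshold 0.05). It was tested on simulated data in which genes varied independently and the planted shifts were larger than any member difference here. Its power for differences of the members' size was therefore not tested. Exact permutation tests used all 252 assignments. Promoters and names came from RefSeq GRCm38.p6 (Python 3.11.15, pandas 2.3.3). The number of arrays limits the precision.

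Values in every embryo were given for Psmd11, for the members of smallest p (at most 4 per direction), the catalytic and inducible subunits and the lowest and highest member by mean level, plus Psmg2, Psme1, Nfe2l1 and Fbxo32, which were chosen after their values were seen. Other lists were named by up to 3 smallest p-values per direction. The members and lists were chosen with earlier results of these data known.

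Correlations showed no clear pairing of same-numbered embryos: 1 of 5 dtg embryos correlated best with its own number, and the deviations correlated at -0.25 to 0.24. Whether same-numbered embryos shared a dam or a processing step was not tested, and 5 pairs cannot settle it. Alternatives were a replicate block, each embryo left out, other variance models, array weights, quantile normalization, median centring, a filter on dim genes, other probe-set rules and a threshold of 0.1.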

Additional observations from a re-analysis of the deposited data

Results flagged for a closer look

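Of 46 sets of 5 embryos examined with Dixon's ratio, 1 had a value far from the others. Psmc6, an ATPase of the regulatory particle, read 9.62 in stg 4, and the nearest control read 9.38, a gap of 0.806 of the group's range. Chance alone sets apart about 1 in 20 such groups.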

How the results depend on the processing

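The number of proteasome members past the threshold in limma was 0 under each of 20 alternatives, the smallest adjusted p being 0.281 for Psma7 without dtg 4. The linked genes also gave 0 under each of their 19. The members' median difference ran from -0.065 to -0.031 over 18 alternatives, and 32 to 40 members were lower in dtg. Median centring gave 40, with 57.6% of all genes lower. With the replicate block 2 genes of all tested passed and 0 members, and the members' median stayed at -0.049. Array weights gave 39 genes in place of 21, and a threshold of 0.1 gave 55. Leaving out 1 embryo gave 7 (without dtg 1) to 58 genes (without stg 4). It gave 37 without stg 5, 10 without dtg 2 or stg 2, 8 without dtg 5 or stg 1, 12 without dtg 4 and 11 without stg 3. Members with an unadjusted p below 0.05 numbered 1 to 8 (2.08% to 16.7%, against 5.72% to 9.54% of all genes). Of the members named by rule, Psmb6 and Psmb8 changed sign. Psmb6 went to 0.0058 with array weights and 0.017 under quantile normalization, and ran from -0.046 to 0.019 with 1 embryo left out. Psmb8 ran from -0.044 to 0.023 with 1 embryo left out. The cause was not tested. Psma8, Psmb8 and Psmb11 were dropped by the filter on dim genes. The limma intervals of 46 of the 48 members included 0, among them that of Psmg2, at -0.20 (-0.41 to 0.012). Member differences of up to 0.20 in size on the log2 scale were thus mostly beyond the precision of 5 arrays per group.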
